A study of Homo sapiens with 6 samples.

Results

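The histone lysine methyltransferases and demethylases are 48 genes of the 61860 listed in a transcriptome table of SH-SY5Y cells. They were chosen by symbol: KMT, KDM and SETD genes with a number, together with EZH1, EZH2, SUV39H1, SUV39H2, EHMT1, EHMT2, NSD1, NSD2, NSD3, DOT1L, SETDB1 and SETDB2. Of 49 matching names 1 lies on chromosome Y and was left out. The methyltransferases, here called writers, number 29, and the demethylases, here called erasers, number 19. The symbol alone set the class, and histone activity is absent or disputed for KMT2E, SETD3, SETD4, SETD5, SETD6, SETD9 and KDM8.

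SH-SY5Y is a human neuroblastoma line, and per the labels' protocols all cells had been driven towards neurons with all-trans retinoic acid. All 6 libraries came from cells exposed for 24 h to insulin at 100 nM together with D-glucose at 30 mM, which the labels call insulin resistance (IR). The 3 IR control libraries had no further agent, and the 3 IR+Oligonol libraries came from cells that also received Oligonol, a lychee-derived polyphenol preparation, at 500 ng/mL for 24 h. The comparison asks how Oligonol altered expression in insulin-resistant cells. No library of cells without insulin resistance was analysed here, and everything rests on 1 cell line. No label says that replicates came from separate cultures. The spread behind every p-value is therefore that between libraries and may be technical.

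Methyl groups on lysines of histones H3 and H4 mark the state of chromatin. Methylation of H3K4 lies at promoters and enhancers, and that of H3K36 and H3K79 over transcribed genes. H3K27 and H3K9 methylation belong to repressed chromatin, laid down by Polycomb repressive complex 2 (PRC2) through EZH1 or EZH2 and by the SUV39H, EHMT and SETDB enzymes. Erasers use flavin (KDM1) or iron, oxygen and 2-oxoglutarate (the other KDM families), so their activity depends on metabolites. In neurons several of these enzymes are known from developmental disorders, among them KDM5C, EHMT1, NSD1, KMT2D and SETD5.

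The promoters of EZH2 and KDM3A, with those of their closest relatives EZH1 and KDM3B, are shown because EZH2 and KDM3A were the members that stood out and the relatives were not called. Each run is the 250 bases before the first start that RefSeq lists in its table for GRCh38.p14, written 5′ to 3′ on the gene's strand. Capitals mark CCAAT, and ACGTG or GCGTG, which are cores of hypoxia-factor sites, on either strand. The E2F words TTTCCCGC and TTTGGCGC and the NRF1 consensus word were also searched and have 0 matches in these windows. The regions are chr7:148884292-148884541 for EZH2, chr17:42745041-42745290 for EZH1, chr2:86441121-86441370 for KDM3A and chr5:138352435-138352684 for KDM3B. EZH2 and EZH1 lie on the minus strand and the others on the plus strand.
EZH2: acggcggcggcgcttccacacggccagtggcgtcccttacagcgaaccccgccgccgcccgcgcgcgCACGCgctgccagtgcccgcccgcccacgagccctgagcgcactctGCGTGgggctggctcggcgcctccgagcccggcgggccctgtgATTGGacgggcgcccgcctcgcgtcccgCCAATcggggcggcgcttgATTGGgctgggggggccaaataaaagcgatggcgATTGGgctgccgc
EZH1: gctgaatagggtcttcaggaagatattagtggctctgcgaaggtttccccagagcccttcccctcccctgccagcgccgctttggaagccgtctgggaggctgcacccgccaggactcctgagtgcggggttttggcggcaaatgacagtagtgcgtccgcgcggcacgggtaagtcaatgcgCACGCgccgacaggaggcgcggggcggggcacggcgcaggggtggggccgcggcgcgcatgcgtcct
KDM3A: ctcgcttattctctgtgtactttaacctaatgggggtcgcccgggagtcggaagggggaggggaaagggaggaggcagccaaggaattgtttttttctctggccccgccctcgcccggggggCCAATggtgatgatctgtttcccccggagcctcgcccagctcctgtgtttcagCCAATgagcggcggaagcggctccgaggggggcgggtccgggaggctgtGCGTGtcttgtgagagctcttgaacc
KDM3B: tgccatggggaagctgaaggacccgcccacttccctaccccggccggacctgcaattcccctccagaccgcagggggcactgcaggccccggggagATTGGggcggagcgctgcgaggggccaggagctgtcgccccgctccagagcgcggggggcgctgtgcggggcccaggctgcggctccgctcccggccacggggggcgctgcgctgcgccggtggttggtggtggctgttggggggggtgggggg

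RefSeq lists 2 such windows each for EZH2 and KDM3A and 1 each for the others. The EZH2 window holds 4 CCAAT matches, the KDM3A window 2, the KDM3B window 1 and the EZH1 window 0. CCAAT occurs in 32.0% of 35116 promoter windows of this length and in 15 of the 44 members matched to the table. Its number did not follow the calls given below. KDM4B, called lower, has 4 matches and KMT5C, called lower, 2. KDM4A and SETD5, not called, have 3 each, and KDM6A and SETDB2, called higher, 2 each. The GCGTG core occurs 2 times in the EZH2 window and 1 time in that of KDM3A, where it begins 26 bases before the start, and it is in 31 of 44 members' windows and in 32.2% of all windows. The other core, ACGTG, is in 10 of 44 members' windows and in 18.5% of all windows. EZH1 has 1 GCGTG match and KDM3B 0. The GC-box word GGGCGG, not capitalised, is in all 4 windows, in 33 of 44 members' windows and in 42.6% of all windows. GC content of the windows is 75.6% for EZH2, 67.6% for EZH1, 62.4% for KDM3A and 76.4% for KDM3B, against a median of 58.0% over all windows. Over the 44 members' windows the median is 66.6%, and the median number of CG steps is 24, against 11 over all windows. Words that hold CG, such as GCGTG and GGGCGG, are therefore not compared at like composition. These are descriptions of letters, and no binding was measured.

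Estimated counts summed to between 22738203 and 32209583 in the control libraries and between 19457923 and 20912945 in the Oligonol libraries. RMRP, RPPH1, RN7SK, RN7SL1 and RN7SL2, all abundant small RNAs, took 72.4 to 76.9% of them in controls and 58.2 to 64.4% with Oligonol, and protein-coding genes 6.24 to 6.83% and 10.0 to 12.3%. Median GC over protein-coding counts was 56.0 to 56.3% and 51.2 to 54.1%, with Oligonol library 2 at 54.1% nearest the controls. Of 12 noradrenergic neuroblast markers 10 reached a mean of 1 CPM (counts scaled to library size), and their sum was 254 to 305 CPM in controls and 168 to 227 CPM with Oligonol. Glial, myeloid, epithelial and endothelial lists each summed to at most 2.10 CPM, and none of their 17 genes reached a mean of 1 CPM. KRT14 was at 0 in every library and AQP4 in every library but 1.

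The members are low-abundance mRNAs. Levels are CPM with library sizes adjusted by the trimmed mean of M values (TMM). The deposited counts behave as abundances per transcript length, so CPM can be ranked between genes. In controls the most abundant were KDM5C, which removes H3K4 methylation (16.4 ± 1.37 CPM, mean ± SD, n = 3 here and below), EHMT1 (13.9 ± 4.60), NSD2 (13.8 ± 0.162) and EHMT2 (13.2 ± 0.437). EHMT1, NSD2 and EHMT2 do not differ beyond their spread. With Oligonol NSD2 was at 16.2 ± 1.48, EHMT1 at 14.7 ± 2.85 and KMT2C at 14.6 ± 1.50, again within their spread of each other. Single estimates behind the tested members ranged from 2.26 to 631.3 estimated counts in a library. These long mRNAs rest on more reads than that, since by a scale fitted from low genes 1 read of a kilobase-long transcript equalled 0.311 to 0.547 of an estimated count.

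Of the 48 members 45 were abundant enough to test, namely all 29 writers and 16 of 19 erasers. KDM4D, a testis-enriched eraser, had 0.860, 2.71 and 2.24 estimated counts in the controls and 6.89, 3.64 and 5.53 with Oligonol. Its close relatives KDM4E and KDM4F were listed at 0 in every library. By edgeR's quasi-likelihood test with Benjamini-Hochberg adjustment over all tested genes, 16 members were higher with Oligonol and 6 lower at an adjusted p under 0.05. Of all 16574 genes tested, 26.0% were higher and 23.0% lower, and of protein-coding genes 27.1% and 27.5%. The members' median log2 fold change was 0.23, beside 0.15 over all tested genes and 0.03 over protein-coding genes. The Oligonol libraries all lay above the controls in 22 members and below in 9, where 33.8% and 28.8% of all genes did so. Leaving out 1 library left 13 higher and 4 lower (without control 1), 4 and 2 (control 2), 3 and 0 (control 3), 7 and 0 (Oligonol 1), 13 and 10 (Oligonol 2) or 4 and 0 (Oligonol 3). EZH2, KDM3A and KDM5A passed in all 6 of these fits. SETD7, KDM1B and NSD1, which were among the 16 higher with all libraries, passed in none of the 6.

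**Figure D1:**
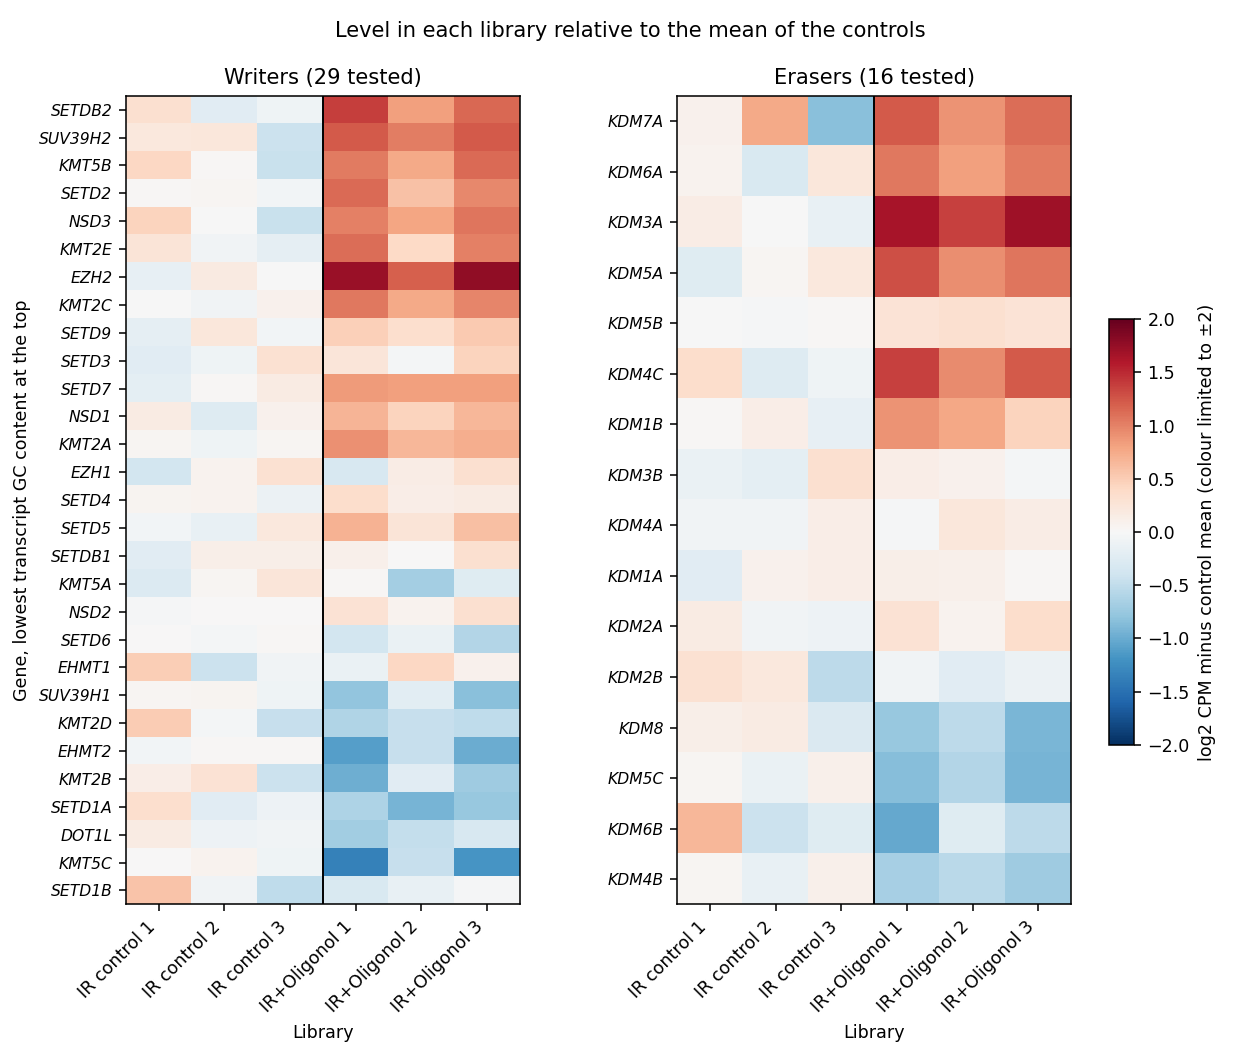
Level of each tested member in each of the 6 libraries, as log2 CPM less the mean of the controls (colour, limited to ±2), with writers and erasers in rows from lowest to highest transcript GC. EZH2 and KDM3A are high in all 3 Oligonol libraries, and Oligonol library 2 is the palest of the 3 for many members.

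EZH2, the main catalytic subunit of PRC2, stood at 1.28, 1.64 and 1.41 CPM in the controls and at 4.88, 3.35 and 5.03 CPM with Oligonol. Every Oligonol library exceeded every control by a wide margin, library 2 by the least. The rise was 1.64 on the log2 scale (standard error, SE, 0.23, edgeR adjusted p = 0.00620), or 3.11-fold. Its estimated counts were 21.4 to 25.3 in controls. EZH1, the other PRC2 catalytic subunit, stood at 1.37, 1.85 and 2.22 CPM in controls and at 1.42, 1.99 and 2.26 with Oligonol. These groups overlap almost fully (log2 fold change 0.04, SE 0.26, edgeR adjusted p = 0.899). Deposited coordinates are chromosome 7, 148807257 to 148884321 for EZH2, and chromosome 17, 42700275 to 42745049 for EZH1 (GRCh38.p13).

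KDM3A, which removes mono- and dimethyl groups from H3K9, stood at 1.30, 1.17 and 1.04 CPM in controls and at 3.84, 3.13 and 3.98 with Oligonol. No library overlapped, and the rise was 1.64 (SE 0.20, edgeR adjusted p = 0.00601). KDM3B, its near relative with the same substrate, stood at 4.27, 4.15 and 5.94 CPM in controls and at 5.18, 5.02 and 4.61 with Oligonol, where the groups interleave. Its log2 fold change was 0.04 (SE 0.19, edgeR adjusted p = 0.878). KDM3A lies on chromosome 2, 86440647 to 86492716, and KDM3B on chromosome 5, 138352685 to 138437028. The printed KDM3A window falls inside the deposited gene, because RefSeq's first listed start lies downstream of the deposited one. EZH2 overlaps 2 annotated genes on the opposite strand, and KDM3A overlaps none. No source used here says whether counting used strand.

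**Figure D2:**
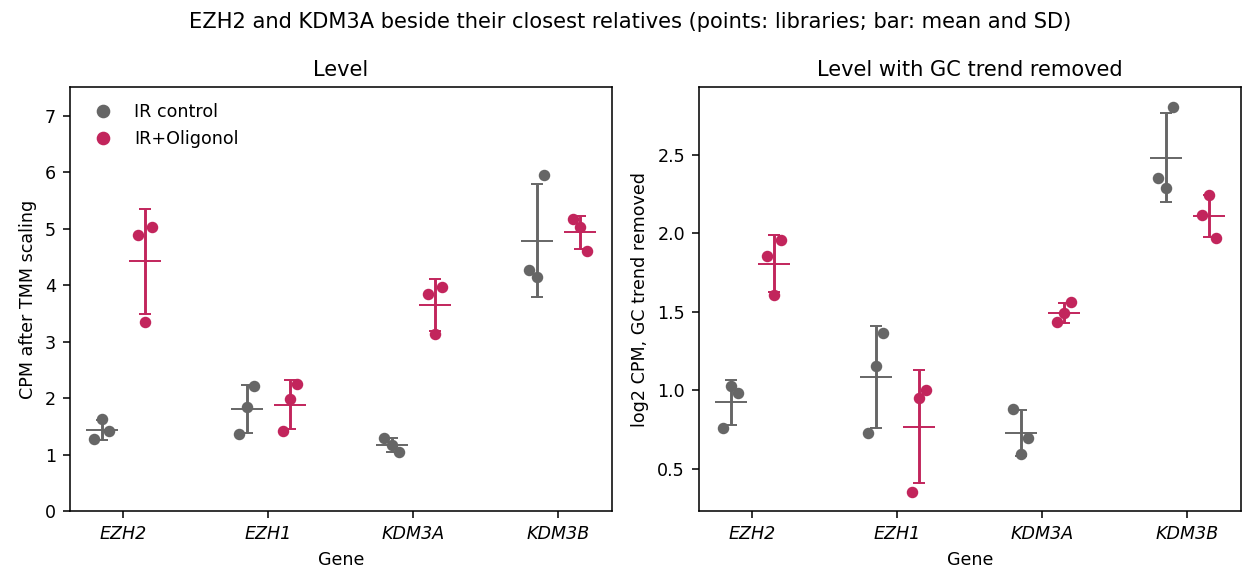
CPM (left, linear axis from 0) and log2 CPM with the GC trend removed (right) of EZH2, EZH1, KDM3A and KDM3B, with 1 point per library and a bar for the mean and SD of 3. EZH2 and KDM3A separate by group in both panels, EZH1 overlaps in both, and KDM3B overlaps on the left and lies lower with Oligonol on the right.

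Direction among members followed the GC content of their transcripts. Over the 45 tested members, fold change and transcript GC had a Spearman's rho of -0.91 (-0.92 over writers and -0.89 over erasers). Over 11719 protein-coding genes of the same libraries it was -0.85. Genes share all 6 libraries and are not replicates, so no p is given. Below 45% GC, 10 of 12 members were higher, beside 65.7% of protein-coding genes. From 45 to 50% GC, 6 of 14 were higher, beside 33.0% of protein-coding genes. From 50 to 55% none of 4 was called, and at 55% or more 6 of 15 were lower, beside 70.1% of protein-coding genes.

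**Figure D3:**
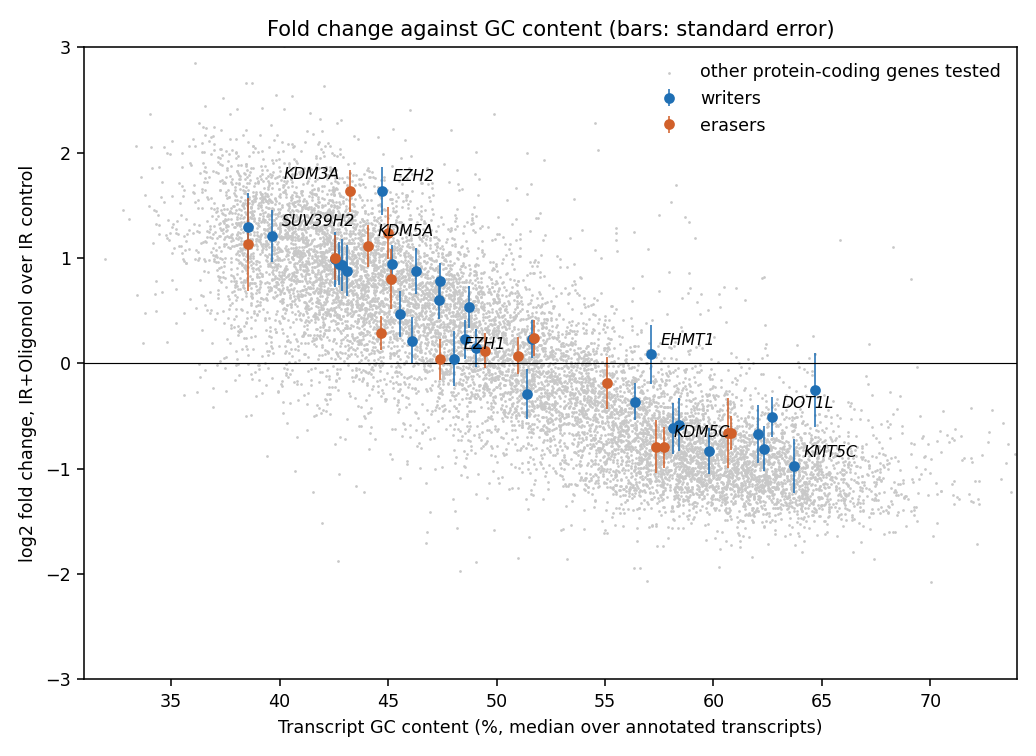
log2 fold change of each tested member (writers and erasers in 2 colours, bars give the SE) against median transcript GC content in percent, over the other protein-coding genes (grey, axis limits leave out a few). The members fall along the same descending band as the other genes, with EZH2 and KDM3A near its upper edge for their GC content.

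The GC trend of each library was therefore removed in a second fit, which takes away any real change that follows GC as well as a technical one. The parts of treatment and library preparation in the trend cannot be told apart in this design. With it removed, 2 members were higher, EZH2 and KDM3A, and 0 lower by edgeR. An unadjusted p under 0.05 was reached by 7 of 45 tested members. It was reached by 4449 of 16200 genes and by 3192 of 11719 protein-coding genes. In that fit 2.89% of 16200 genes were higher and 2.56% lower, and of protein-coding genes 2.28% and 2.12%. EZH2 had a log2 fold change of 0.94 (SE 0.16, edgeR adjusted p = 0.0336) and KDM3A of 0.83 (SE 0.14, edgeR adjusted p = 0.0336). The medians were 0.16 over members, 0.17 over writers, 0.15 over erasers and 0.03 over all genes. When 1 library at a time was also left out, EZH2 passed only without Oligonol library 2 (adjusted p = 0.0433) and KDM3A only without control library 1 (adjusted p = 0.0466), with log2 fold changes between 0.75 and 1.01 for the 2 genes. The largest adjusted p of these 2 genes in these fits was 0.135. Without control library 2 or 3, or without Oligonol library 1 or 3, the fit called 0 of all genes, so missing the threshold there was not particular to EZH2 and KDM3A.

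**Figure D4:**
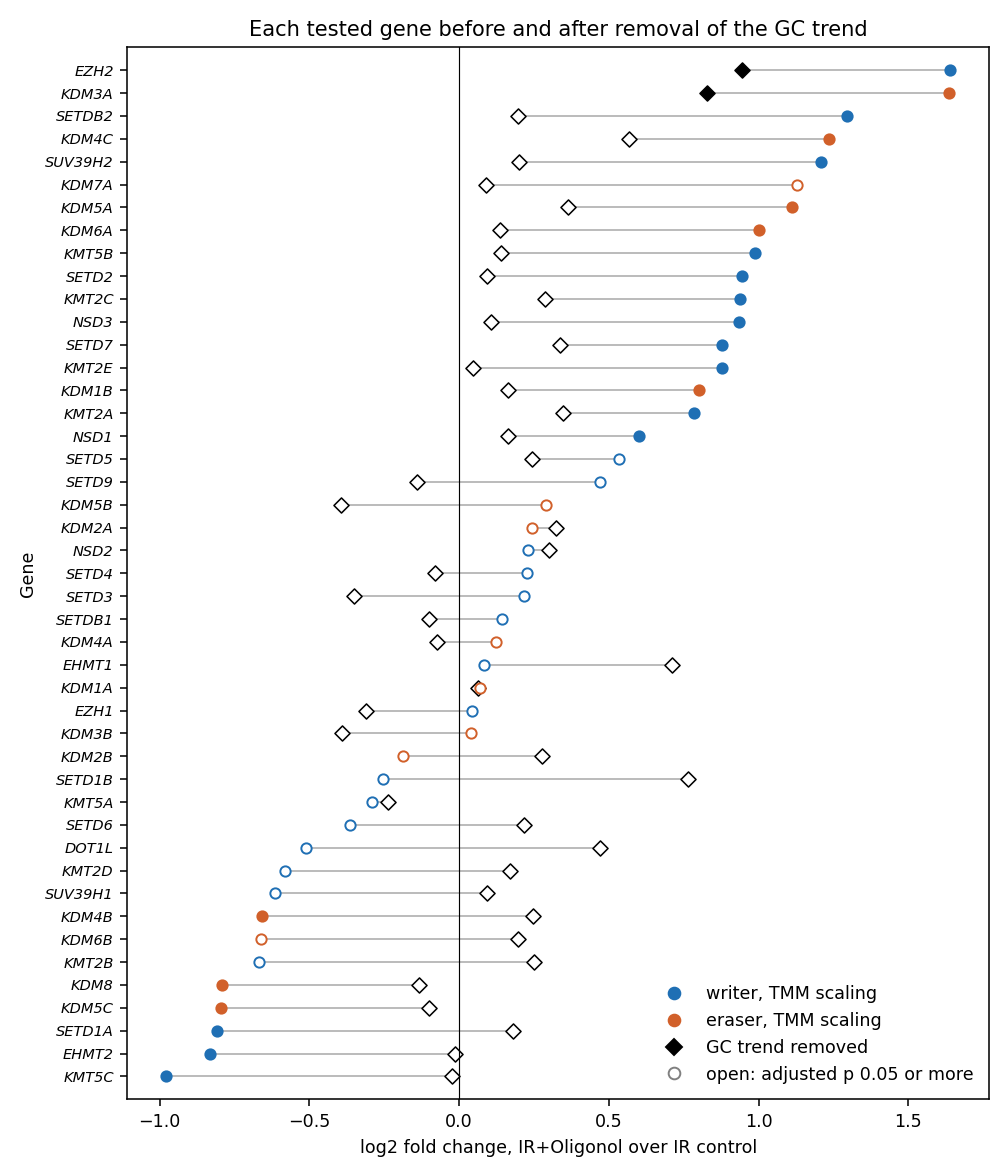
log2 fold change of each tested member in the first fit and after removal of the GC trend, joined by a line, with members ordered by the first value and open symbols where the adjusted p is 0.05 or more. All 22 members called in the first fit move towards or past 0, and EZH2 and KDM3A, the 2 called in both, stay furthest right.

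Among the H3K4 writers 4 of 8 were higher and 1 lower. KMT2A, which founded the MLL family, stood at 4.31, 3.95 and 4.34 CPM in controls and at 7.99, 6.66 and 6.96 with Oligonol. Without overlap it rose by 0.78 (SE 0.17, edgeR adjusted p = 0.0104). KMT2C, an enhancer writer, rose from 7.62 ± 0.413 to 14.6 ± 1.50 CPM (0.94). KMT2E, an MLL-family protein without known methyltransferase activity, and SETD7, an H3K4 monomethyltransferase, rose by 0.88 each. KMT2D, the enhancer partner of KMT2C, had 9.96, 6.81 and 5.02 CPM in controls and 4.60, 5.07 and 4.88 with Oligonol. Control library 1 was above the rest and the groups overlapped (-0.58, edgeR adjusted p = 0.0866). SETD1A, which trimethylates H3K4 at promoters, fell by 0.81, while KMT2B (-0.67) and SETD1B (-0.25) did not pass. Once the GC trend was removed, KMT2A stood at 0.35, KMT2C at 0.29, KMT2E at 0.05, SETD7 at 0.34 and SETD1A at 0.18, none past the threshold.

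Of the H3K36 writers 3 of 4 rose. SETD2, the sole enzyme for trimethylation of H3K36 in most cells, stood at 1.73, 1.72 and 1.62 CPM in controls and at 3.82, 2.61 and 3.39 with Oligonol. The controls were nearly equal and all Oligonol libraries lay above them (0.95, SE 0.20, edgeR adjusted p = 0.0106, and 0.09 with the GC trend removed). NSD3 (0.93) and NSD1 (0.60), which dimethylate H3K36, rose as well, and NSD2 did not pass (0.23, edgeR adjusted p = 0.321). With the GC trend removed NSD3 stood at 0.11, NSD1 at 0.16 and NSD2 at 0.30, none past the threshold. DOT1L, the only known H3K79 writer, had 2.99, 2.43 and 2.49 CPM in controls and 1.61, 1.88 and 2.10 with Oligonol. Its Oligonol libraries all lay lower, yet it missed the threshold (-0.51, SE 0.19, edgeR adjusted p = 0.0546) and turned to 0.47 with the GC trend removed (adjusted p = 0.205).

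In each of the 3 pairs of H3K9 writers 1 gene was called and its relative was not. SUV39H2, which trimethylates H3K9, had 0.960, 0.947 and 0.597 CPM in controls and 2.02, 1.73 and 2.01 with Oligonol. The groups were well apart (1.21, SE 0.25, edgeR adjusted p = 0.00993). SUV39H1, its relative at constitutive heterochromatin, had 1.81 ± 0.0948 and 1.18 ± 0.321 CPM (-0.62, edgeR adjusted p = 0.0648). SETDB2, of the SETDB pair, had 0.410, 0.250 and 0.303 CPM in controls and 0.954, 0.608 and 0.799 with Oligonol. It rose by 1.29 (SE 0.32, edgeR adjusted p = 0.0153) from 3.86 to 6.88 estimated counts in controls. SETDB1, which silences retroelements with TRIM28, did not pass (0.14).

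EHMT2, also called G9a, which dimethylates H3K9 in euchromatin, had 12.7, 13.4 and 13.4 CPM in controls and 6.13, 9.52 and 6.60 with Oligonol. All Oligonol libraries were lower, library 2 the least, and it fell by 0.83 (SE 0.22, edgeR adjusted p = 0.0173). EHMT1, its partner in the same complex, had 18.9, 9.97 and 12.7 CPM in controls and 12.2, 17.8 and 14.2 with Oligonol, with wide overlap (0.08, edgeR adjusted p = 0.820). Once the GC trend was taken out SUV39H2 and SETDB2 stood at 0.20 each, EHMT2 at -0.01 and EHMT1 at 0.71 (edgeR adjusted p = 0.122).

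Among the H4K20 writers, KMT5B rose by 0.99 (1.18 ± 0.372 to 2.34 ± 0.317 CPM) and KMT5C fell by 0.98 (4.89 ± 0.283 to 2.51 ± 0.898 CPM). Both add further methyl groups to monomethylated H4K20. KMT5A, which makes that monomethyl mark, did not pass (-0.29). Free of the GC trend KMT5B stood at 0.14 and KMT5C at -0.02. The transcripts of KMT5B hold 42.6% GC and those of KMT5C 63.7%. None of SETD3, SETD4, SETD5, SETD6 and SETD9 passed, with log2 fold changes from -0.36 to 0.53.

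Of the 5 H3K4 erasers 2 rose and 1 fell. KDM5A had 2.30, 2.82 and 3.19 CPM in controls and 6.86, 5.32 and 5.95 with Oligonol. Every Oligonol library was above every control (1.11, SE 0.20, edgeR adjusted p = 0.00774). KDM5B had 8.74, 8.67 and 9.02 CPM in controls and 10.6, 11.1 and 10.6 with Oligonol, a tight and separate pair of groups that did not pass (0.29, SE 0.16, edgeR adjusted p = 0.167). KDM5C, the X-linked relative, fell from 16.4 ± 1.37 to 9.46 ± 1.27 CPM (-0.79, SE 0.19, edgeR adjusted p = 0.0143). KDM1A, also called LSD1, had 6.24, 7.85 and 8.08 CPM in controls and 7.95, 7.88 and 7.44 with Oligonol. The groups overlapped and the difference was 0.07 (SE 0.18, edgeR adjusted p = 0.758). Its relative KDM1B rose by 0.80 from 0.477 ± 0.0572 CPM. In the fit without the GC trend KDM5A stood at 0.36, KDM5B at -0.40, KDM5C at -0.10, KDM1A at 0.06 and KDM1B at 0.16, none past the threshold.

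Of the H3K27 erasers, KDM6A, also called UTX, had 1.19, 0.930 and 1.37 CPM in controls and 2.44, 2.06 and 2.43 with Oligonol. The groups did not touch (1.00, SE 0.21, edgeR adjusted p = 0.0106). KDM6B, also called JMJD3, had 7.42, 3.40 and 3.90 CPM in controls and 2.25, 3.92 and 3.20 with Oligonol. Control library 1 was the highest, the groups overlapped, and it did not pass (-0.66, SE 0.34, edgeR adjusted p = 0.133). Values without the GC trend were 0.13 for KDM6A and 0.20 for KDM6B.

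The KDM4 family, which removes methyl groups from H3K9 and H3K36, moved in both directions. KDM4C had 1.12, 0.726 and 0.826 CPM in controls and 2.38, 1.76 and 2.15 with Oligonol. It rose without overlap by 1.24 (SE 0.25, edgeR adjusted p = 0.00947), and stood at 0.57 with the GC trend removed (edgeR adjusted p = 0.141). KDM4B fell by 0.66 and turned to 0.25 with the GC trend removed. KDM4A (0.12), KDM2A (0.24) and KDM2B (-0.19) did not pass. KDM7A, at 1.13, missed the threshold (edgeR adjusted p = 0.0653), and KDM8, whose histone activity is disputed, fell by 0.79. With the GC trend removed KDM7A stood at 0.09 and KDM8 at -0.13, neither past the threshold.

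Both classes held members in each direction. Among writers 11 of 29 were higher and 3 lower (median log2 fold change 0.23), and among erasers 5 of 16 were higher and 3 lower (median 0.18). After GC removal each class had 1 member higher and 0 lower. The 2 classes differ little in median GC content, at 48.5 and 49.5%. Summed over each class, writers' estimated counts outnumbered erasers' by a log2 ratio of 0.99, 0.96 and 0.86 in controls and of 1.13, 1.04 and 1.19 with Oligonol. This ratio needs no scaling between libraries. Writers made 66.5, 66.0 and 64.4% of the members' counts in controls and 68.7, 67.2 and 69.5% with Oligonol. The Oligonol libraries are all above the controls by a narrow margin, and no test is given for such a sum over chosen members. KDM5C alone held 281, 230 and 300 of the erasers' 1102, 929 and 1120 estimated counts in controls. With Oligonol it held 336, 280 and 295 of 2437, 1688 and 2203. The ratio thus leans on 1 abundant eraser and is not read as a shift of the whole class. Adjusted for the GC trend, the ratio was 0.99, 0.94 and 0.85 in controls and 1.14, 1.05 and 1.19 with Oligonol. In CPM the writers' sum was 122 ± 7.56 and 141 ± 5.33, and the erasers' 63.7 ± 3.17 and 64.7 ± 1.11.

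The share of all protein-coding counts held by the 48 members was 0.212, 0.160 and 0.157% in controls and 0.324, 0.246 and 0.305% with Oligonol. Lower calls depended on scaling: with the scaling of the authors' deposited signal 27 members were higher and 0 lower by edgeR (38.6% and 10.1% of all genes), and by library totals 37 and 0 (68.1% and 0.223%). These scalings moved the median log2 fold change of all genes from 0.15 to 0.55 and to 1.53, and that of the members from 0.23 to 0.63 and to 1.63. The 6 members lower under TMM were KMT5C, EHMT2, SETD1A, KDM5C, KDM8 and KDM4B. By the authors' scaling they kept values below 0 (-0.59, -0.44, -0.41, -0.40, -0.40 and -0.26), none past the threshold. By library totals they turned positive, so under TMM they were lower relative to genes at large. With the GC trend removed these 6 stood at -0.02, -0.01, 0.18, -0.10, -0.13 and 0.25, none past the threshold. Protein-coding genes of 55% GC or more, the GC range of all 6, had a median of -0.89 under TMM. Fewer cells of a type and less RNA per cell cannot be told apart in such data.

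Ratios between relatives within a library need no scaling. For 21 pairs of close relatives the log2 ratio of the lower-GC to the higher-GC gene was taken in each library. In 19 pairs all Oligonol libraries exceeded all controls. Fold change fell with GC over protein-coding genes (Spearman's rho -0.85), so this order favours upward ratios. Over the 21 pairs the change in ratio followed the GC gap (rho 0.66). No share over other gene pairs of like GC gap was taken, before or after removal of the GC trend. The pairs within KDM4, KDM5 and NSD share genes. The exceptions were KDM2A over KDM2B, whose groups overlapped, and SETD1A over SETD1B, whose mean went down by 0.57. An exact 2-sided permutation test cannot go below p = 0.1 with 3 against 3, and adjusted over the 21 pairs the smallest value was 0.110. The EZH2 to EZH1 ratio was -0.10, -0.18 and -0.65 in controls and 1.78, 0.75 and 1.16 with Oligonol, so EZH1 was the more abundant in every control and EZH2 in every Oligonol library. The KDM3A to KDM3B ratio was -1.72, -1.82 and -2.51 in controls and -0.43, -0.68 and -0.21 with Oligonol, leaving KDM3B the more abundant throughout.

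After removal of the GC trend, 5 ratios still separated upwards: EZH2 to EZH1 by 1.20, KDM3A to KDM3B by 1.14, EHMT1 to EHMT2 by 0.77, KDM5A to KDM5B by 0.76 and KDM5A to KDM5C by 0.45. SETD1A to SETD1B separated downwards, at -0.66. Each had an exact permutation p = 0.1, and 0.350 when adjusted over the pairs. Both genes of a pair enter such a change. With the GC trend removed EZH2 stood at 0.94 and EZH1 at -0.31, and KDM3A at 0.83 and KDM3B at -0.39. In the same fit KDM5A stood at 0.36 and KDM5B at -0.40, and SETD1A at 0.18 and SETD1B at 0.77. Of these genes only EZH2 and KDM3A passed the threshold. KDM5A and KDM5B transcripts differ by 0.573 percentage points in GC content, and their ratio changed by 0.84 before and 0.76 after removal. The SUV39H2 to SUV39H1 ratio, across 18.5 points of GC, changed by 1.88 before and 0.01 after, and KMT5B to KMT5C, across 21.1 points, by 2.04 and 0.13.

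**Figure D5:**
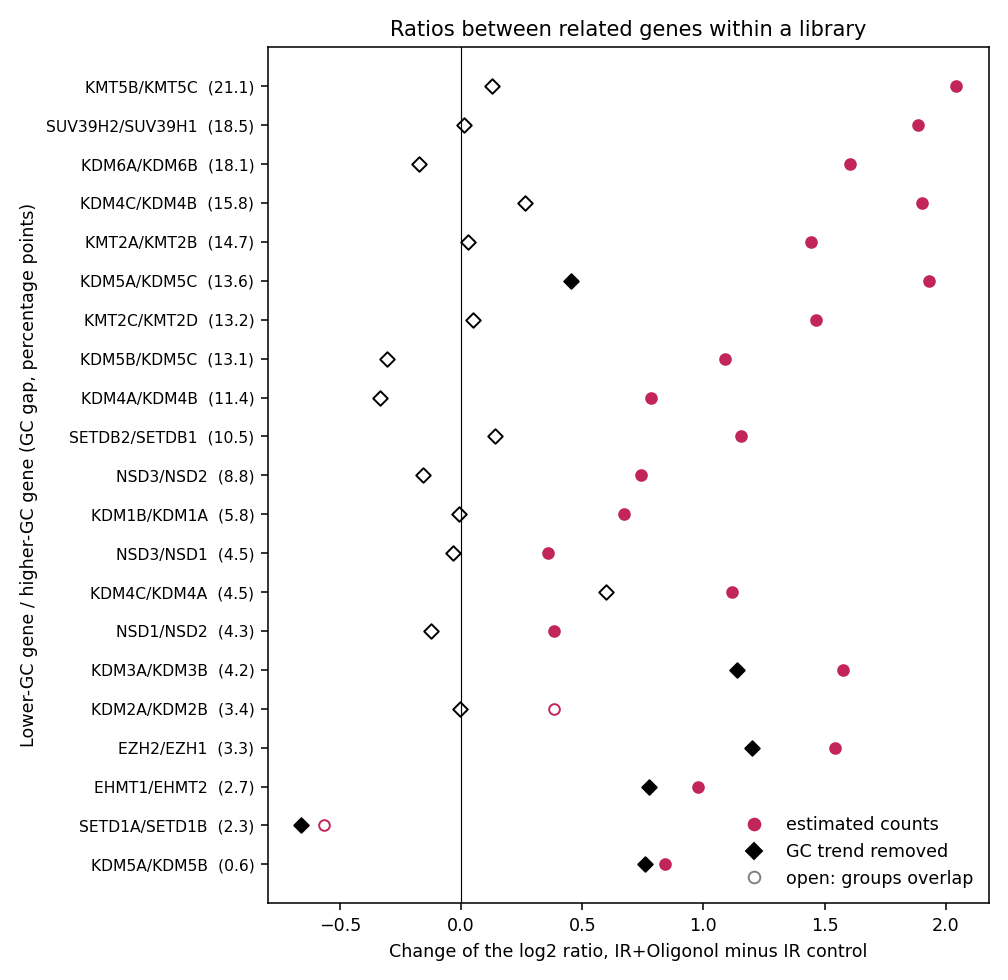
Change in the log2 ratio of the lower-GC to the higher-GC relative, Oligonol mean less control mean, for 21 pairs, before (circles) and after (diamonds) removal of the GC trend, ordered by the GC gap in percentage points, with open symbols where the groups overlap. Before removal 20 of 21 lie above 0, and afterwards EZH2 to EZH1 and KDM3A to KDM3B keep the greatest changes.

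Partners of these enzymes were followed in lists of complex members and of enzymes outside the symbols used here, 77 genes in all, of which 70 were tested. By edgeR 28 were higher and 15 lower, with a median of 0.53, beside 26.0%, 23.0% and 0.15 over all tested genes. With the GC trend removed 3 were higher and 1 lower, with a median of 0.12, beside 2.89%, 2.56% and 0.03. Of 11 tested PRC2 partners 6 were higher and 3 lower. Median GC of the PRC2 list was 45.2%, but its genes lay mostly away from that value. Of those higher, EED, MTF2, AEBP2 and RBBP7 hold 36.9 to 44.9% GC, and below 45% GC 65.7% of protein-coding genes were higher. Those lower, PHF19, PHF1 and EPOP, hold 56.9 to 63.9% GC, and at 55% or more 70.1% of protein-coding genes were lower. RBBP7 and these 3 were looked up after their values were seen. AEBP2, which tethers PRC2 to chromatin, rose by 1.85 (SE 0.30, edgeR adjusted p = 0.00717) and MTF2, a Polycomb-like subunit, by 1.45. After that removal they stood at 0.89 (edgeR adjusted p = 0.0612) and 0.50. The core subunits EED and SUZ12, looked up after their values were seen, rose by 1.19 and 1.14 in the first fit and stood at 0.05 and 0.08 with the GC trend removed.

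Among 12 partners of H3K9 methylation 7 were higher and 2 lower. Median GC of that list was 42.6%, and below 45% GC 65.7% of protein-coding genes were higher. CBX5, the heterochromatin protein HP1 alpha, rose from 5.28 ± 0.801 to 15.4 ± 1.21 CPM (1.55) and PPHLN1, of the HUSH complex, by 1.38. Both missed the threshold after GC removal (edgeR adjusted p = 0.0553 and 0.0515). Of 13 COMPASS and MLL partners 5 were higher and 3 lower, and the shared core subunits RBBP5 and ASH2L rose by 1.21 and 1.05. With the GC trend removed RBBP5 stood at 0.45 and ASH2L at 0.63, neither past the threshold. Of 11 tested LSD1-CoREST partners 5 were higher and 3 lower. For this list and the COMPASS list the shares over all tested genes were 26.0% and 23.0%. ZMYM2 rose by 1.83 and RCOR3 by 1.22, and ZMYM2 passed also with the GC trend removed (0.72, edgeR adjusted p = 0.0367). RCOR3 stood at 0.64 in that fit and missed the threshold (edgeR adjusted p = 0.0523).

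Of the 6 DOT1L partners 1 rose and 1 fell, where 26.0% and 23.0% of all tested genes did so. AFF4, the scaffold of the super elongation complex, rose from 2.60 ± 0.317 to 7.89 ± 1.08 CPM (1.60, SE 0.19, edgeR adjusted p = 0.00601) and passed with the GC trend removed (1.01, edgeR adjusted p = 0.0245). MLLT6 fell by 0.70 and stood at 0.05 with the GC trend removed. Of 17 tested writers and erasers with other symbols 4 were higher and 3 lower, beside the same shares of all tested genes. The smallest p belonged to PRDM2 (1.13), an H3K9 writer, and ASH1L (1.03), an H3K36 writer. PRDM2 stood at 0.68 and ASH1L at 0.30 with the GC trend removed, neither past the threshold. Besides ZMYM2 and AFF4, the partner genes past the threshold with the GC trend removed were ZNF644, a partner of EHMT1 and EHMT2 (0.72), and MECOM. MECOM was lower (-1.54), and both were named after their values were seen.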

How the data were processed

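Total RNA of SH-SY5Y cells was sequenced with a stranded total RNA kit and paired reads of 100 nt (labels' protocols). FastQC, edgeR, kallisto 0.46.1 and the build GRCh38.p13 stand in the submitters' processing notes. The step from transcripts to genes is not stated in the sources used. The authors deposited, for each of 61860 genes, an estimated count and a signal. Within a library the deposited signal is a fixed multiple of the estimated count, so it served as an alternative scaling. No per-sample column was left unmapped.

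Estimated counts were rounded, filtered with filterByExpr, scaled by TMM and tested with edgeR 4.0.16 (quasi-likelihood, robust, 2-sided, R 4.3.3) with Benjamini-Hochberg adjustment over 16574 genes and a threshold of 0.05. SE is that implied by the test. GC content is the median over GENCODE 29 transcripts. The GC trend of each library, a natural spline with 5 degrees of freedom fitted on protein-coding genes, entered as an offset. All 48 members matched GENCODE 29, and 44 matched the RefSeq promoter table. NSD3, DOT1L, SETD1B and KDM4E did not. Of the members 35 overlap another annotated gene, 31 of them one on the opposite strand, and none shares its values with another gene.

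Values in each library are given for members past the threshold with a log2 fold change of at least 1 in size, for those also past it with the GC trend removed, and for 11 fixed members (EZH1, EZH2, KMT2A, KMT2D, SETD2, DOT1L, EHMT2, KDM1A, KDM5B, KDM6A and KDM6B). Those of KDM3B, EHMT1 and KDM4D were added after their values were seen. Of each partner list the 2 genes with the smallest p were named. Members, lists and tests were chosen with earlier results of these data known. Alternatives were RLE scaling, library totals, DESeq2 1.42.0, limma-voom (limma 3.58.1), other filters and thresholds, a replicate block and each library left out. The authors' scaling, read equivalents and GC of the longest coding transcript were chosen after seeing the data. The code was checked on simulated data.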

Additional observations from a re-analysis of the deposited data

How the results depend on the processing

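Counts of members rest on genes of low level and on 3 libraries a group, and they moved with the scaling. The groups differ in small-RNA share and in GC content. How far each of these bears on the counts was not tested. Counts are given as higher and lower for members, writers, erasers and partner genes in that order, from a first fit with 16 and 6, 11 and 3, 5 and 3, and 28 and 15, and the cause of each shift was not tested.

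With the GC trend removed they were 2 and 0, 1 and 0, 1 and 0, and 3 and 1, with 883 genes called in all against 8112. By the longest coding transcript's GC they were 2 and 1, 1 and 1, 1 and 0, and 7 and 1 (1296 genes, erasers' median 0.22). The lower member there was SETD6 (-0.73, edgeR adjusted p = 0.0470), whose GC content is 56.4% by the median and 46.7% by the longest transcript. With the GC trend removed and a replicate block all were 0, as was the count of all genes. From read equivalents with the GC trend removed they were 2 and 0, 1 and 0, 1 and 0, and 7 and 3 (1819 genes, medians 0.11 for writers and 0.087 for erasers). Under an adjusted p of 0.01 they were 6 and 0, 3 and 0, 3 and 0, and 15 and 1 (2180 genes). By the authors' deposited scaling they were 27 and 0, 17 and 0, 10 and 0, with 4 partners lower and medians of 0.63 and 0.58. By library totals they were 37 and 0, 23 and 0, 14 and 0, and 57 and 0, with medians of 1.63 and 1.57. With no filter 2 members, 1 writer, 1 eraser and 4 partners were lower among 4567 genes called, and the erasers' median was 0.24.

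Writers called lower numbered 5 by DESeq2, RLE scaling, limma-voom and TMM on protein-coding genes, and 6 from read equivalents. The erasers' median was 0.11 by DESeq2 and by RLE, 0.24 on protein-coding genes and 0.14 from read equivalents, where the writers' was 0.13. With at least 10 counts in all libraries the medians were 0.48 for writers and 0.35 for erasers, and 9 partners were lower.

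Leaving out 1 library gave 3 to 13 members higher and 0 to 10 lower, 1 to 9 writers higher and 0 to 7 lower, 2 to 4 erasers higher and 0 to 3 lower, 7 to 25 partners higher and 0 to 21 lower, and 782 to 9492 genes called. Medians ran from 0.11 to 0.22 for writers and from -0.025 (without Oligonol library 2) to 0.22 for erasers. EZH2 kept a log2 fold change of 1.44 to 1.64 and KDM3A of 1.47 to 1.61, all past the threshold.

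Among members called in the first fit or in the alternative, these changed sign. By library totals KDM2B stood at 1.17, KMT5A at 1.16, SETD6 at 1.00, DOT1L at 0.85, KDM4B at 0.72, KDM5C and SETD1A at 0.57, KDM8 at 0.55, EHMT2 at 0.51 and KMT5C at 0.34. With the GC trend removed SETD1A stood at 0.18 and KDM4B at 0.25, with the block added at 0.17 and 0.24, by the longest transcript at 0.18 and 0.27, and from read equivalents at 0.12 and 0.20. By the longest transcript KMT5C stood at 0.0089 and EHMT2 at 0.047. From read equivalents with the GC trend removed KMT2E stood at -0.0084.

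Deviations of libraries with the same replicate number correlated at 0.09, -0.01 and -0.15, so the numbers were not taken to pair libraries. With the replicate block 15 members were higher and 5 lower, all 20 also called without it. With the block and the GC trend removed EZH2 stood at 0.94 (edgeR adjusted p = 0.0846) and KDM3A at 0.83 (edgeR adjusted p = 0.0884). In that fit edgeR called 0 members, and 6 had an unadjusted p under 0.05, for which no share over all genes was taken. The setting with each library left out and the GC trend removed, like the authors' scaling, read equivalents and the longest transcript, was chosen after seeing the data.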
